A study of Mus musculus with 16 samples.

Results

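The transcripts described here are 8 genes that mark the islet cells other than β cells: *Gcg*, *Sst*, *Ppy*, *Pyy*, *Ghrl*, *Hhex*, *Irx2* and *Ttr*. They were picked by symbol, with earlier results of these data known, out of 24411 genes in bulk RNA-seq of whole mouse pancreas, and they are set against *Ins1* and *Ins2*, the insulin genes, as a measure of β cell content. All 16 libraries came from C57BL6/J males of 12 weeks of age on standard chow, 1 mouse a library. Of these mice, 5 were lean WT animals and 11 were obese, leptin-deficient Lep(ob/ob) animals. The sources differ on whether the WT mice were bred in house, as the labels have it, or purchased like the Lep(ob/ob) mice, as the study's methods have it. From 6 weeks of age and for 6 weeks, 4 of the Lep(ob/ob) mice drank water with an antagonist of the receptors for the gut hormone CCK. It was proglumide (0.1 mg/ml) for 2 of them and lorglumide (0.05 mg/ml) for the other 2, and the WT mice and the remaining 7 Lep(ob/ob) mice drank control water.

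The labels place each library in 1 of 2 batches. Batch A consisted of 3 WT and 4 untreated Lep(ob/ob) mice. All 4 treated mice were in batch B, with 2 WT and 3 untreated Lep(ob/ob) mice, so that treatment could be compared directly only there. Each library holds 9.87 to 34.5 M counts, with 19.2 to 34.5 M in batch A and 9.87 to 15.9 M in batch B. Functional leptin is missing from every cell of a Lep(ob/ob) mouse, from birth, although transcripts of *Lep* itself were still counted. The pancreas was ground whole. The 9 acinar markers summed to at least 1533100 normalized counts in every mouse, and 14 markers shared by all islet endocrine cells to between 2514 and 41758. In such bulk tissue, fewer cells of a type and less RNA per cell cannot be told apart.

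Pancreatic islets are clusters of endocrine cells scattered in exocrine tissue. α cells make glucagon from *Gcg* and raise blood glucose, δ cells make somatostatin from *Sst* and restrain their neighbours, PP cells make pancreatic polypeptide from *Ppy*, and ε cells make ghrelin from *Ghrl*. *Pyy* encodes peptide YY, a relative of pancreatic polypeptide made in islets and in the gut. *Irx2* and *Hhex* encode transcription factors of α and δ cells. *Hhex* is also used by duct and liver cells. *Ttr* encodes transthyretin, a carrier of thyroid hormone and retinol-binding protein that is abundant in liver and also made in islets. Obesity with insulin resistance is known for the expansion of β cells, which raises the question of what happened to the transcripts of their neighbours.

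The results below turn on 4 hormone genes, and the sequence around the start of each is shown so that they can be compared. Each is the RefSeq promoter window on GRCm38.p6, the assembly also named mm10, from 250 bases before to 50 bases after the start, read 5′ to 3′ on the gene's strand. Capitals mark exact matches to TATAAA, a form of the TATA box, and TGACGTCA, the cyclic AMP response element, on either strand. All 4 genes lie on the minus strand, *Gcg* at chr2:62483604-62483903, *Sst* at chr16:23890795-23891094, *Ppy* at chr11:102101270-102101569 and *Pyy*, for the first of its 2 RefSeq starts, at chr11:102107783-102108082.
Gcg: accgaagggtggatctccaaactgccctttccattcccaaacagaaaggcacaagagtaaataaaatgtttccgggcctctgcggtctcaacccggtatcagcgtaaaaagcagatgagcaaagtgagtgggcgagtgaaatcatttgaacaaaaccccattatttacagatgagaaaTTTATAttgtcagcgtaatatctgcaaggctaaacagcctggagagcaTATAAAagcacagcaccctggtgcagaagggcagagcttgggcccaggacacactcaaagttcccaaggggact
Sst: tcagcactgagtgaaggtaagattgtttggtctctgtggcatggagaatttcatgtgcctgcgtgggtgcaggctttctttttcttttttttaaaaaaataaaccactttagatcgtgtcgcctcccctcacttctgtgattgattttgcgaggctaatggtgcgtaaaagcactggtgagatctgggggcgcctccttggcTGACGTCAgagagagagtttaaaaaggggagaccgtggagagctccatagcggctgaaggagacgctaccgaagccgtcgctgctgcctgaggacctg
Ppy: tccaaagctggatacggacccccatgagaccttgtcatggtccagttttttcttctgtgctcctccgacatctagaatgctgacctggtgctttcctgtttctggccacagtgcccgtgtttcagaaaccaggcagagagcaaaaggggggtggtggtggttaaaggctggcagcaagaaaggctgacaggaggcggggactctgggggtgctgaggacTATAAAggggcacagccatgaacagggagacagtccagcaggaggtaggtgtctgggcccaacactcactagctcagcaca
Pyy: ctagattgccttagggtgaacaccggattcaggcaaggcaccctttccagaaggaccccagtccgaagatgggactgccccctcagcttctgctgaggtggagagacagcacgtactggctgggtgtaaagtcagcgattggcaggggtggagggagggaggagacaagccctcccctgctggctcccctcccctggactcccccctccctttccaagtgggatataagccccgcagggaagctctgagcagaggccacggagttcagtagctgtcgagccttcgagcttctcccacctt

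TATAAA was found 24 bases before the *Gcg* start and 31 bases before the *Ppy* start, and once more on the other strand of *Gcg*, 72 bases before the start. It occurs in 14.2% of 27025 mouse promoters of the same length. TGACGTCA was found in the *Sst* window alone among the 4, 48 bases before the start, and in 1.88% of all promoters. Neither exact motif was in the *Pyy* window. Variants were not searched for, and that window holds tataag, which differs from TATAAA in the last base, so the lack of an exact match does not mean that *Pyy* lacks a TATA box. *Ppy* and *Pyy* are neighbours on chromosome 11, transcribed in the same direction, with 5356 bases between the annotated ends of the genes and 6513 bases between their starts. In the GENCODE annotation of the same build, no stretch of 50 bases in the transcripts of *Gcg*, *Sst*, *Ppy* or *Pyy* occurs in another gene, and none of these genes overlaps another gene.

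In untreated Lep(ob/ob) pancreas, the PP family transcripts and *Ttr* rose several-fold together with insulin. *Ppy* rose 6.02-fold, *Pyy* 5.19-fold and *Ttr* 2.94-fold against WT, beside 4.83-fold for *Ins1* and 5.62-fold for *Ins2*. The fold for *Gcg*, at 1.90, did not pass the test, and that for *Sst* was 1.03. Of the 8 genes, 6 passed the filter on low counts. By edgeR's quasi-likelihood test with batch as a term and Benjamini-Hochberg adjustment over 13660 genes, 3 of these 6 were higher and 0 were lower, where 5.82% of all genes tested were called higher and 3.12% lower. The median log2 fold change was 1.24 over the 6 genes and -0.018 over all genes.

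**Figure D1:**
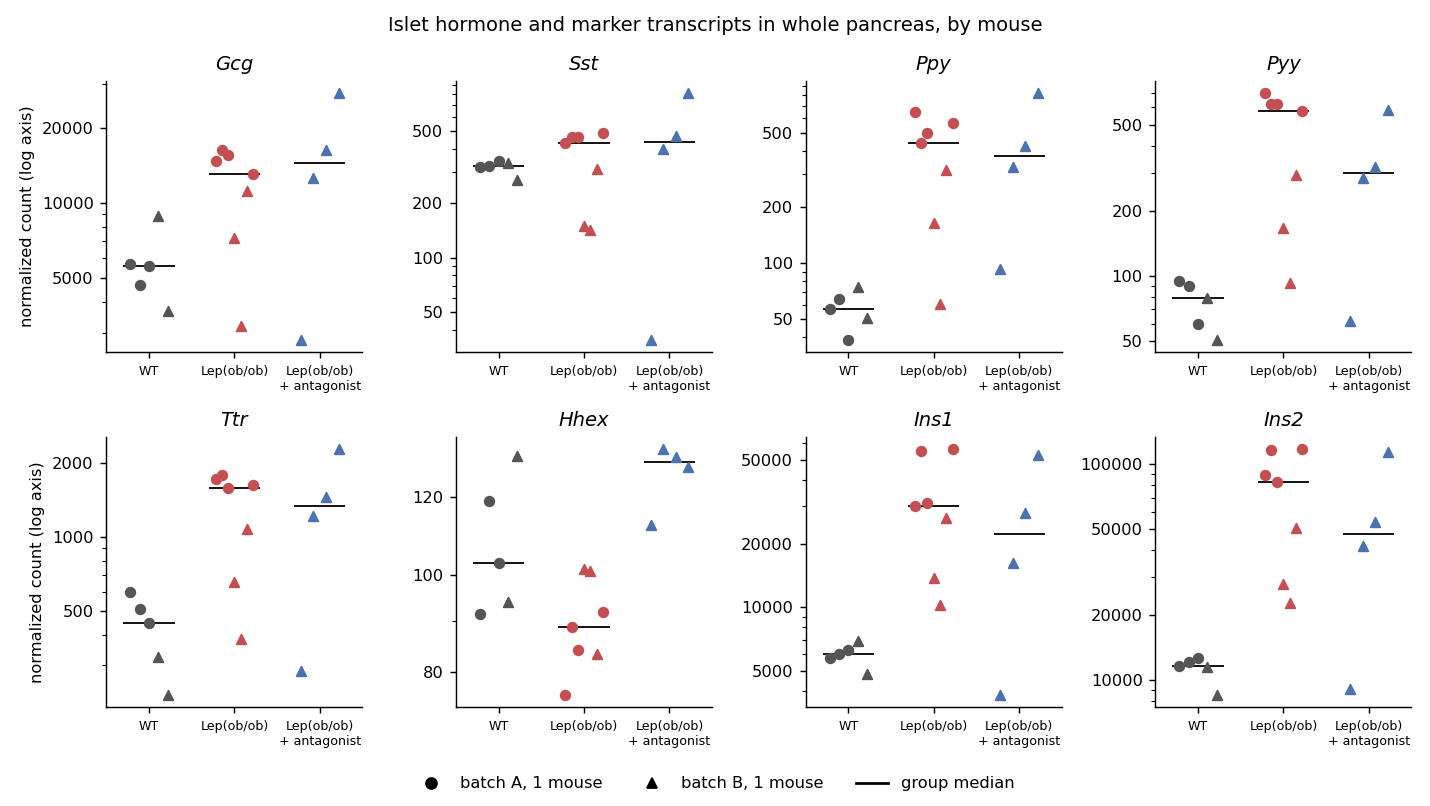
Normalized counts of 6 genes of the non-β islet cells and of both insulin genes in each of 16 mice, on log axes, by group and batch, with the group median as a line. *Ppy*, *Pyy*, *Ttr* and insulin are higher in most Lep(ob/ob) mice than in WT mice, *Sst* lies at 270.3 to 344.8 in WT and 143.4 to 492.0 in untreated Lep(ob/ob) mice, and treated mouse 69 is the lowest of its group for every gene shown.

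*Ppy* had 56.5, 64.7, 38.97, 74.6 and 50.8 normalized counts in the 5 WT mice. In the 7 untreated Lep(ob/ob) mice it ran from 60.7 to 651.3, with a median of 445.3. Only mouse 463, the lowest of the obese mice, fell within the WT range, and all others were above the highest WT mouse. The log2 fold change was 2.59 ± 0.55 (SE), with an adjusted p of 0.00863 by edgeR.

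*Pyy* followed the same order. WT mice had 94.2, 89.4, 60.0, 79.5 and 50.8 normalized counts, and untreated Lep(ob/ob) mice had 92.5 to 696.5 with a median of 580.0. The groups met at a single point again, since mouse 463 lay just under the highest WT mouse. The log2 fold change was 2.37 ± 0.48 (SE), with an adjusted p of 0.00618 by edgeR.

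*Ttr* was the most abundant of the 3 genes that rose. It had 597.7, 507.1, 445.7, 324.3 and 227.1 normalized counts in WT mice and 384.2 to 1788 in untreated Lep(ob/ob) mice, with a median of 1592. Mouse 463 lay inside the WT range and the other 6 obese mice above it. The log2 fold change was 1.55 ± 0.38 (SE), with an adjusted p of 0.0172 by edgeR. It lost its call when WT mouse 5494 or WT mouse 59 was left out, at adjusted p of 0.0522 and 0.0510. Hepatocytes also express *Ttr*. The summed normalized count of 8 liver markers was 407.9 to 1281 in WT and 75.9 to 413.8 in untreated Lep(ob/ob) mice, under the sum of the WT mice in all but 1 obese mouse. *Cyp2e1* had the highest median of these markers, at 430.7 normalized counts in WT and 61.2 in untreated Lep(ob/ob) mice. *Alb* had similar medians in the 2 groups, at 37.3 and 40.0, so the sum does not show less liver RNA in obese mice. In raw reads, *Alb* had 23 to 543 in WT and 32 to 162 in untreated Lep(ob/ob) mice, and *Apoa1* 0 to 44 and 0 to 12. The part of liver RNA in the *Ttr* values was not tested.

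*Gcg* was by far the most abundant of the 8 transcripts. WT mice had 5695, 4683, 5591, 8809 and 3674 normalized counts. Untreated Lep(ob/ob) mice had 3189 to 16239, with a median of 13057. Mouse 463 was under the lowest WT mouse, mouse 461 within the WT range and the other 5 above it. The log2 fold change of 0.93 ± 0.45 (SE) did not pass, with an adjusted p of 0.231 by edgeR.

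*Sst* was the tightest of the hormone genes in lean mice, at 319.0, 320.02, 344.8, 335.7 and 270.3 normalized counts. In untreated Lep(ob/ob) mice it ran from 143.4 to 492.0, with a median of 429.6. Obese mice lay both above and below the WT range. The log2 fold change was 0.037 ± 0.47 (SE), with an adjusted p of 0.976 by edgeR, and its sign turned when any 1 of 5 mice was left out, at -0.011 to -0.051.

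*Hhex* did not move with the hormones. It had 91.5, 118.8, 102.9, 94.1 and 131.9 normalized counts in WT mice and 75.8 to 101.5, with a median of 88.8, in untreated Lep(ob/ob) mice. The groups overlapped, and the log2 fold change of -0.29 ± 0.12 (SE) had an adjusted p of 0.159 by edgeR.

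The last pair of genes was close to the floor of the counts. *Ghrl*, at chr6:113716119-113719880 on the minus strand, had 0 to 3 raw reads in WT, 0 to 5 in untreated and 0 to 4 in treated Lep(ob/ob) mice. *Irx2*, at chr13:72628820-72634198 on the plus strand, had 1 to 9, 4 to 15 and 4 to 15 raw reads. Both failed the filter over all mice and no fold change is given. *Ghrl* also overlaps an antisense gene, *Gm26982*, and the strand setting of the counting is not given in the sources used here. The α cell transcription factors *Irx1* and *Pou3f4* were as scarce, with at most 9 and 2 raw reads in any mouse.

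Per kilobase of exon, the order of the median levels in WT mice was *Gcg* at 3742, *Sst* at 443.9, *Ttr* at 375.8, *Pyy* at 125.9, *Ppy* at 113.1 and *Hhex* at 20.4 normalized counts per kb. *Sst* and *Ttr* overlapped in their ranges over mice, as did *Pyy* and *Ppy*. In untreated Lep(ob/ob) mice the order was *Gcg* at 8740, *Ttr* at 1342, *Pyy* at 919.1, *Ppy* at 890.6, *Sst* at 595.8 and *Hhex* at 17.6 per kb. Here *Ttr*, *Pyy*, *Ppy* and *Sst* all overlapped in their ranges, and *Gcg* and *Hhex* stood apart from them. *Sst* had the second highest median level of these 6 genes in WT mice and the fifth in obese mice, at 374.9 to 478.2 per kb in WT and 198.8 to 682.4 per kb in untreated Lep(ob/ob) mice.

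**Figure D2:**
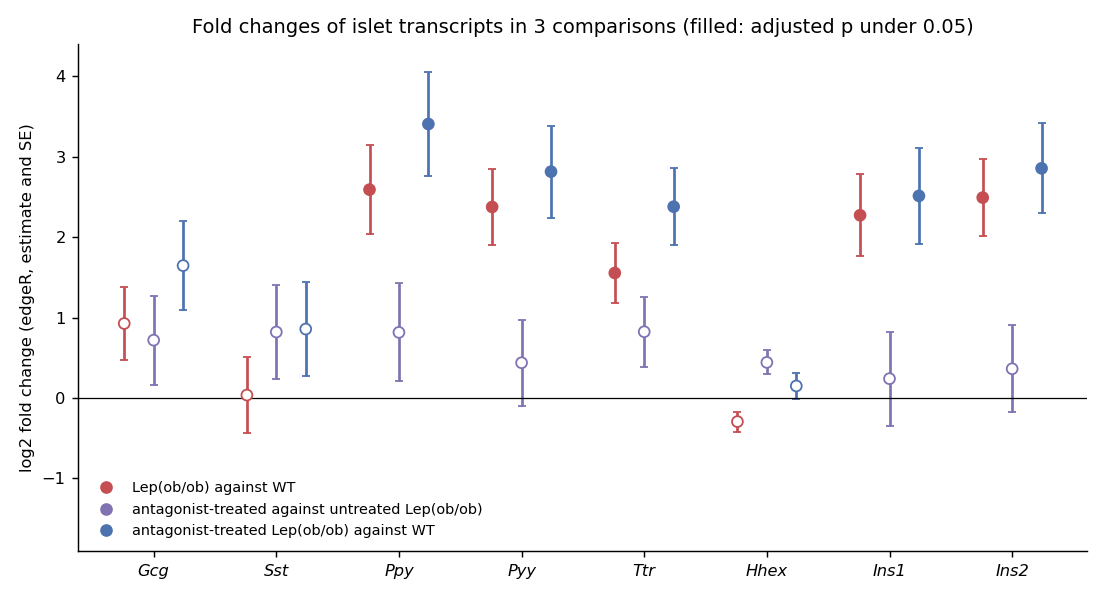
Log2 fold changes with their standard errors, from edgeR, of 6 genes of the non-β islet cells and of both insulin genes in 3 comparisons. Filled points have an adjusted p under 0.05, which *Ppy*, *Pyy*, *Ttr* and both insulin genes reach in each comparison with WT and no gene reaches between treated and untreated Lep(ob/ob) mice.

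The batches gave different sizes, and each was tested alone with edgeR. In batch A, 5 of 7 genes tested were called higher in untreated Lep(ob/ob) mice, all but *Hhex* and *Irx2*, where 6.76% of all genes were. In batch B, with 3 against 2 mice, 0 of 6 were called, where 0.0298% of all genes were called higher. *Ppy* had a log2 fold change of 3.40 in batch A and 1.52 in batch B, *Pyy* 3.02 and 1.50, and *Ttr* 1.75 and 1.36. *Gcg* had 1.53, with an adjusted p of 1.77e-05, in batch A and 0.20 in batch B. In batch A the 4 obese mice had 13057 to 16239 normalized counts of *Gcg* and the 3 WT mice 4683 to 5695, with no overlap. In batch B the obese mice had 3189, 7245 and 11145 and the WT mice 3674 and 8809, so the groups interleaved.

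*Sst* had opposite signs in the batches. It stood at a log2 fold change of 0.54, with an adjusted p of 0.00300 by edgeR, in batch A and at -0.60, with an adjusted p of 0.476, in batch B. In batch A, untreated Lep(ob/ob) mice had 429.6 to 492.0 normalized counts, all above the 319.0 to 344.8 of WT mice. In batch B they had 150.3, 143.4 and 310.9, against 335.7 and 270.3 in WT mice. The difference itself, the interaction of genotype and batch, was -1.14 for *Sst*, -1.32 for *Gcg*, -1.86 for *Ppy*, -1.50 for *Pyy* and -0.38 for *Ttr* on the log2 scale, beside -1.37 for *Ins1* and -1.36 for *Ins2*. None passed adjustment over 13189 genes by edgeR, the lowest adjusted p of a member being 0.371 for *Sst*, where 0 of all genes were called, and 4 members had an unadjusted p of 0.00886 to 0.0472, where 11.7% of all genes were under 0.05. DESeq2 called 0 members and 52 of all genes.

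**Figure D3:**
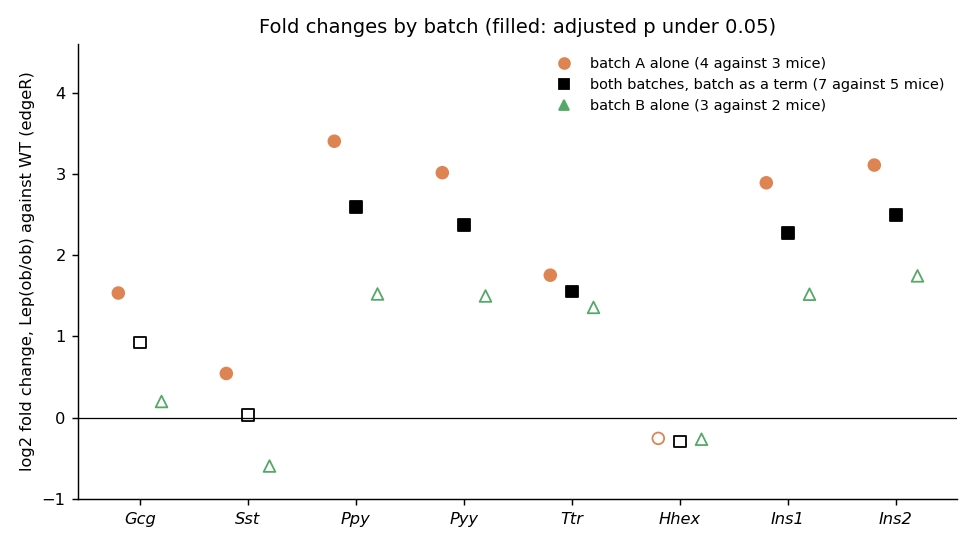
Log2 fold changes of untreated Lep(ob/ob) against WT mice from edgeR, in batch A alone, in batch B alone and over both with batch as a term, with filled points at an adjusted p under 0.05. *Gcg*, *Sst*, *Ppy*, *Pyy*, *Ttr* and both insulin genes lie higher in batch A than in batch B, *Hhex* lies at -0.25 and -0.27, and *Sst* lies at 0.54 in batch A and -0.60 in batch B.

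2 libraries of batch B stood low for the islet genes. Untreated mouse 463 was the lowest of its group for *Gcg*, *Sst*, *Ppy*, *Pyy*, *Ttr* and both insulin genes, and treated mouse 69 for these and *Hhex*. Their adipocyte markers were the highest of all 16 mice, with a summed normalized count of 34337 in mouse 463 and 27813 in mouse 69, and none of the others exceeded 10068. The 50 most counted genes made up 59.6% of the counts in mouse 463 and 48.3% in mouse 69, the lowest share of each group. The part of adipose tissue, or of any other tissue outside the islets, in the islet values was not tested. Without mouse 463, *Gcg* had a log2 fold change of 1.15 with an adjusted p of 0.127, and *Ppy*, *Pyy* and *Ttr* were still called, at 2.85, 2.58 and 1.69 by edgeR.

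Other genes listed as markers of these islet cells gave a mixed picture, to be set against 5.82% of all genes called higher and 3.12% called lower. Among 8 further α cell markers, 5 were tested and 1 was higher, *Gc*, the vitamin D binding protein of α cells, at a log2 fold change of 2.56 ± 0.42 (SE) and an adjusted p of 0.00152. Of those that did not pass, *Slc7a2*, *Slc38a5* and *Dpp10* had values of -0.65 to 0.18. In WT mice *Slc38a5* and *Slc7a2* had medians of 3006 and 799.6 normalized counts, against 58.0 for *Gc*. The part of acinar and other non-islet cells in these values, and so in the median of the α cell list, was not tested. Of 6 further δ cell markers, 4 were tested and 2 were higher, *Sstr3*, a somatostatin receptor, at 2.61 ± 0.41 and the transcription factor *Etv1* at 1.39 ± 0.25 (SE), with adjusted p of 0.000950 and 0.00226 by edgeR. *Sstr3* ran from 22.7 to 43.5 normalized counts in WT and from 81.9 to 333.7 in untreated Lep(ob/ob) mice, with no overlap, beside the overlapping ranges of *Sst* itself. The log2 fold change of *Ins2* was 2.49. Which islet cells held the *Sstr3* transcripts was not tested, so they cannot be assigned to δ cells here. Of 9 β cell markers, 3 were higher and 0 lower, namely *Iapp*, which encodes amylin, at 2.81, the glucose-6-phosphatase gene *G6pc2* at 2.10 and the transcription factor *Nkx6-1* at 1.65. The median of the tested genes was 0.18 for the α cell, 1.07 for the δ cell and 1.25 for the β cell list, against -0.018 over all genes.

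Most genes used by every islet endocrine cell rose. Of 14 pan-endocrine genes 12 were higher and 0 lower, with a median log2 fold change of 2.25. Over all genes tested, 5.82% were called higher and 3.12% lower, with a median of -0.018. *Chgb*, a granin of secretory granules, stood at 3.47 ± 0.48, *Scg2*, which encodes secretogranin II, at 3.44 ± 0.54, *Scg3* at 2.86 ± 0.43 and the vesicle protein *Syp*, synaptophysin, at 2.30 ± 0.24 (SE), with adjusted p of 5.42e-05 to 0.000926 by edgeR. Of 5 genes that process prohormones, 4 were tested and all 4 were higher. *Pcsk2*, the convertase that releases glucagon from its precursor in α cells, was at 2.41 ± 0.44, *Pcsk1*, which cuts proinsulin, at 1.85 ± 0.41, *Cpe*, which trims the cut ends, at 1.81 ± 0.38 and *Pam*, which amidates peptides such as those of the PP family, at 1.52 ± 0.20 (SE). The fifth, *Mboat4*, which acylates ghrelin, had at most 4 raw reads in any mouse.

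The receptors of these hormones were mostly too low to test, with 5 of 13 past the filter. Of these 5, 2 were higher, 1 was lower and 2 did not pass, where 5.82% and 3.12% of all genes were called higher and lower. *Sstr3*, counted above as a δ cell marker, was 1 of the 2 higher. *Gcgr*, the glucagon receptor, was higher at 2.10 ± 0.54, although at 2.16 to 6.73 normalized counts in WT and 0 to 28.6 in untreated Lep(ob/ob) mice. *Sstr2*, the somatostatin receptor of α cells and of acinar cells, was lower at -1.17 ± 0.25 (SE), with an adjusted p of 0.00672 by edgeR. It had 72.4 to 122.4 normalized counts in WT, 20.3 to 72.6 in untreated and 15.7 to 34.5 in treated Lep(ob/ob) mice.

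**Figure D4:**
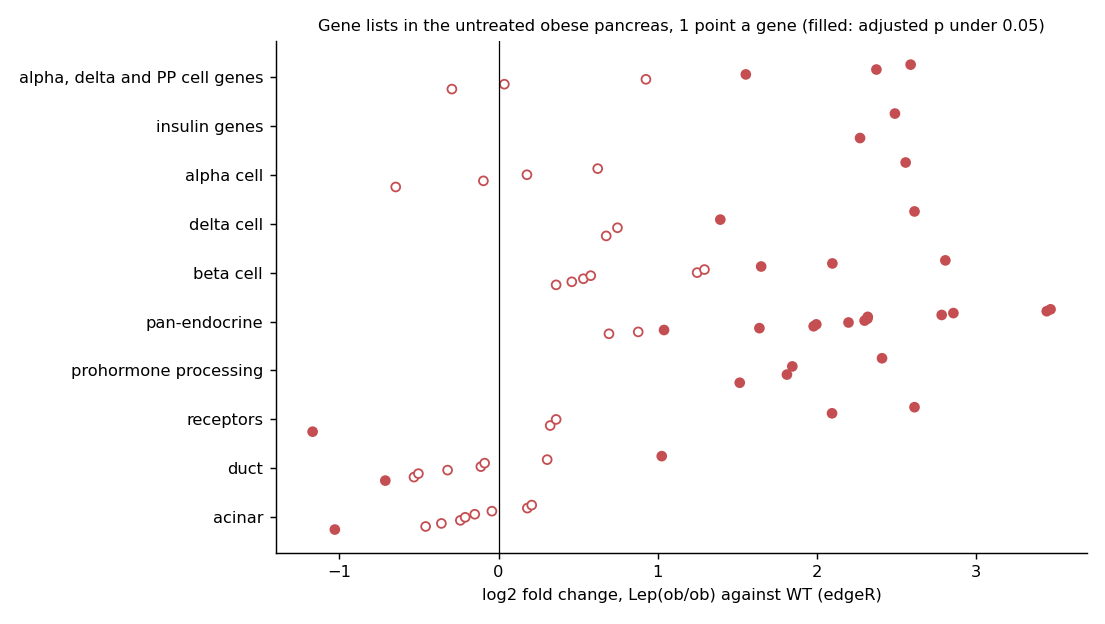
Log2 fold changes of untreated Lep(ob/ob) against WT mice from edgeR for each tested gene of 10 lists, 1 point a gene, with filled points at an adjusted p under 0.05. The pan-endocrine list has 12 of 14 filled points on the higher side, and the genes of the non-β islet cells run from -0.29 to 2.59.

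Cells outside the islet were followed with 8 more lists, again beside 5.82% of all genes called higher and 3.12% called lower. In untreated Lep(ob/ob) against WT mice, the duct list had 1 gene higher (*Krt7*, 1.03) and 1 lower of 8, and the acinar list 0 higher and 1 lower (*Ptf1a*, -1.03) of 9. The adipocyte list had *Lep* higher, at 5.38, and *Cfd* lower, at -3.15, of 6 tested, and the liver list 0 higher and *Cyp2e1* lower, at -2.71, of 3 tested. The lymph node and spleen, macrophage, and peripheral neuron lists had none of 6, 6 and 3 tested genes past the threshold by edgeR. Of the stomach and intestine list, which bears on *Pyy* and *Ghrl* because gut endocrine cells make them, 1 gene was high enough to test, *Vil1*, the villin of brush borders, which was higher at 2.88 ± 0.33 (SE). *Gkn1*, *Gkn2* and *Cdx2* had 0 reads in every mouse, and apart from *Vil1* the others had few, the most being 21 raw reads of the goblet cell mucin *Muc2* and 17 of the gastric proton pump gene *Atp4a* in any mouse. The summed normalized count of 11 genes of this list was 16.2 to 45.0 in WT and 73.4 to 277.8 in untreated Lep(ob/ob) mice. Most of that sum was *Vil1*, at 13.0 to 26.0 in WT and 62.9 to 265.2 in untreated Lep(ob/ob) mice. The medians of the tested genes were -0.22 for duct, -0.21 for acinar, 1.59 for adipocyte, -1.53 for liver, -0.42 for lymph node and spleen, 0.47 for macrophage and 0.77 for neuron genes.

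Set against insulin, the 6 genes fell into separate groups. The count of each was expressed as a percent of the *Ins1* and *Ins2* counts of the same mouse, which does not depend on the normalization between libraries. Relative to insulin, *Sst* was 0.191 times, *Gcg* 0.363 times and *Ttr* 0.543 times its WT level in untreated Lep(ob/ob) mice, whereas *Ppy*, at 1.05 times, and *Pyy*, at 0.937 times, did not pass the test. In an exact two-sided permutation test within batches, over 350 regroupings, 4 of 6 genes differed, *Gcg*, *Sst*, *Ttr* and *Hhex*, each at p = 0.00286, the smallest that these regroupings allow. These p-values are not adjusted for the 6 genes, and 91.5% of all genes tested were lower relative to insulin by edgeR.

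These ratios have to be read against the rise of insulin itself. With log insulin counts as the offset in edgeR, the median log2 fold change over all 13660 genes was -2.40. *Sst* at -2.38 and *Hhex* at -2.68 were close to that median, *Gcg* at -1.45 and *Ttr* at -0.89 lay between it and 0, and *Pyy* at -0.074 and *Ppy* at 0.13 lay near 0. *Gcg*, *Sst* and *Hhex* were called lower, at adjusted p of 0.00383, 0.000151 and 0.000109, and *Ttr* was not, at 0.121.

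Among single mice, *Sst* made up 1.84, 1.77, 1.82, 1.83 and 2.02% of insulin counts in the 5 WT mice, and 0.272 to 0.434% in the 7 untreated Lep(ob/ob) mice, with a median of 0.361%. The groups did not overlap in either batch, and the log2 difference was -2.47 in batch A and -2.27 in batch B. *Gcg* made up 32.9, 25.9, 29.6, 47.9 and 27.5% in WT and 7.51 to 17.3%, with a median of 12.4%, in untreated Lep(ob/ob) mice, again with no overlap. Its log2 difference was -1.46 in all, -1.49 in batch A and -1.43 in batch B. *Ttr* had a log2 difference of -1.26 in batch A and -0.34 in batch B (exact p = 0.0286 and 0.2), and *Hhex* of -3.26 and -1.83. In batch B alone, the 3 against 2 mice allow no p below 0.1.

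*Ppy* made up 0.326, 0.358, 0.206, 0.406 and 0.380% of insulin counts in WT and 0.184 to 0.547%, with a median of 0.395%, in untreated Lep(ob/ob) mice (permutation p = 0.811). *Pyy* made up 0.544, 0.495, 0.317, 0.432 and 0.380% in WT and 0.280 to 0.585%, with a median of 0.380%, in untreated Lep(ob/ob) mice (permutation p = 0.657). For both genes all WT mice lay inside the range of the obese mice. The sign of the small *Ppy* difference turned with *Ins2* alone as denominator, at -0.0066, and in batch B alone, at -0.35.

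**Figure D5:**
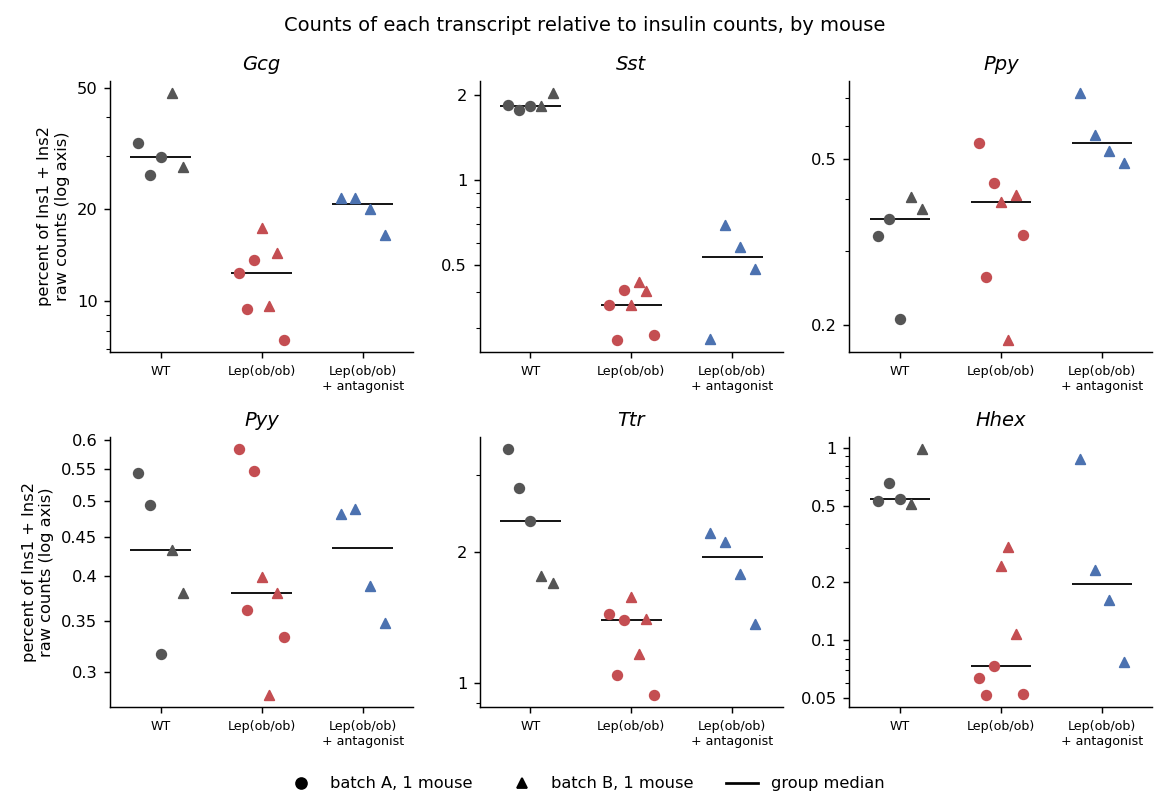
Raw count of each gene as a percent of the *Ins1* plus *Ins2* raw counts of the same mouse, on log axes, by group and batch, with the group median as a line. *Sst* lies at 1.77 to 2.02% in WT and 0.272 to 0.434% in untreated Lep(ob/ob) mice, *Gcg* separates the same groups, and *Ppy* and *Pyy* do not.

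The hormone transcripts also differed from each other, in 6 pairwise ratios tested by the same exact permutation test and added after the values had been seen. Between untreated Lep(ob/ob) and WT mice, *Sst* fell by 2.48 against *Ppy* and by 2.31 against *Pyy* on the log2 scale, and *Gcg* fell by 1.55 and by 1.38 against them (exact p = 0.00286 each, the smallest possible). *Gcg* rose by 0.93 against *Sst* (exact p = 0.00857). *Ppy* and *Pyy* did not differ beyond the spread, at 0.16 (exact p = 0.329). Between treated and untreated Lep(ob/ob) mice of batch B, *Ppy* was higher against *Pyy* by 0.60 and *Gcg* against *Pyy* by 0.29 on the log2 scale (exact p = 0.0286 each, the smallest possible), and the other 4 pairs had exact p of 0.114 to 1. These p-values are not adjusted for the 6 pairs.

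With group and batch removed, the residual log2 CPM of the islet genes moved together from mouse to mouse. Over 16 mice, the Pearson r of the 21 pairs among *Gcg*, *Sst*, *Ppy*, *Pyy*, *Ttr*, *Ins1* and *Ins2* was 0.84 to 0.99. The 7 pairs with *Hhex* had r of -0.13 to 0.15. All values of a mouse come from 1 library and share its depth and its piece of tissue. Among 10863 other genes with a mean log2 CPM of at least 1, the nearest to *Ppy* was *Pyy* and the nearest to *Pyy* was *Ppy*, at 0.97, and then *Mtmr7* and *0610040J01Rik* for *Ppy*, at 0.95 and 0.95, and *Slc2a5* and *0610040J01Rik* for *Pyy*, at 0.97 and 0.97. The nearest to *Gcg* were *Resp18*, a protein of endocrine granules, at 0.98, *Ociad2* at 0.97 and *Slc2a5*, the fructose transporter GLUT5, at 0.96. The nearest to *Sst* were *Ins2* at 0.97, *Slc2a5* at 0.96 and *Nell1* at 0.96. Of these, *Ociad2* and *0610040J01Rik* had log2 fold changes of 0.051 and 0.045 between untreated Lep(ob/ob) and WT mice, with adjusted p of 0.932 and 0.938 by edgeR.

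Treatment with a CCK receptor antagonist was then compared with control water in Lep(ob/ob) mice. None of the 6 genes passed, 0 by edgeR and 0 by DESeq2 with batch, where edgeR called 0.0659% of all genes in either direction. 1 of 6, *Hhex*, had an unadjusted p under 0.05 in each tool, where 14.1% of all genes had one by edgeR and 15.5% by DESeq2. The log2 fold changes were 0.72 ± 0.55 for *Gcg*, 0.82 ± 0.58 for *Sst*, 0.82 ± 0.61 for *Ppy*, 0.44 ± 0.53 for *Pyy* and 0.82 ± 0.44 (SE) for *Ttr*, beside 0.24 ± 0.59 for *Ins1* and 0.36 ± 0.54 for *Ins2*. The errors leave room for sizeable differences in either direction for most of these genes. Without treated mouse 76, the highest of its group for the hormone genes, *Gcg* was at 0.23 and *Pyy* at -0.052, and without treated mouse 69 they were at 1.07 and 0.80.

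The spread within the treated group was wide for every hormone. In the order of mice 69, 72, 74 and 76, *Gcg* had 2818, 12603, 16346 and 27523 normalized counts and *Sst* 35.4, 401.4, 473.2 and 810.5. *Ppy* had 92.8, 329.7, 427.9 and 817.6, *Pyy* 62.2, 283.1, 316.9 and 580.4, and *Ttr* 285.6, 1224, 1453 and 2288. The order of the 4 mice was the same for all 5 genes. Mice 69 and 72 drank proglumide and mice 74 and 76 lorglumide, at different doses, so the drugs are not compared. Against all untreated Lep(ob/ob) mice by edgeR, *Gcg* was at -0.23 with the proglumide mice alone and 1.29 with the lorglumide mice alone, *Sst* at -0.16 and 1.41, *Ppy* at -0.17 and 1.42, *Pyy* at -0.41 and 0.99, and *Ttr* at 0.025 and 1.35. None passed adjustment over all genes, and 0 and 5 of the 7 genes tested had an unadjusted p under 0.05, where 9.54% and 15.8% of all genes had one.

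*Hhex* was the exception to the wide spread. Treated mice had 112.5, 134.1, 131.5 and 128.7 normalized counts, all above the 75.8 to 101.5 of untreated Lep(ob/ob) mice, and mouse 72 alone above the highest WT mouse. The log2 fold change was 0.44 ± 0.15 (SE), with an adjusted p of 0.271 by edgeR with batch. Without the batch term the adjusted p was 0.0491 by edgeR and 0.0123 by DESeq2, where 3.95% and 18.4% of all genes were called, and in batch B alone it was 0.404.

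Relative to insulin, 1 of 6 genes had a p under 0.05 between treated and untreated Lep(ob/ob) mice of batch B, with no adjustment for the 6 genes. With insulin as offset in edgeR, 0 of 13660 genes were called higher and 1 lower in this comparison. *Ppy* made up 0.719, 0.570, 0.524 and 0.490% of insulin counts in mice 69, 72, 74 and 76, against 0.395, 0.184 and 0.409% in untreated mice 461, 463 and 464, with no overlap. The log2 difference was 0.87, or 1.83-fold (exact p = 0.0286, the smallest of 35 regroupings). Leaving out single mice gave 0.50 to 1.07. The 0.50 was without untreated mouse 463 (exact p = 0.133, where the smallest possible is 0.0667). With *Ins1* and *Ins2* as offset in edgeR, *Ppy* was at 0.64 with an adjusted p of 0.884, beside a median of 0.53 over all genes, and with pan-endocrine genes as denominator the exact p was 0.0571. *Gcg* made up 21.8, 21.8, 20.0 and 16.5% in treated and 17.3, 9.66 and 14.5% in untreated mice of the batch, overlapping at a single untreated mouse, with a log2 difference of 0.57 (exact p = 0.0857). *Sst* made up 0.274, 0.693, 0.579 and 0.485% in treated and 0.359, 0.434 and 0.403% in untreated mice (exact p = 0.457). Every treated mouse stayed under the lowest WT mouse of either batch for *Gcg* and for *Sst*.

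Against WT mice, treated Lep(ob/ob) mice had 3 of 6 genes higher, *Ppy*, *Pyy* and *Ttr*, where 4.19% of all genes were called higher. This comparison shares its WT mice with that of untreated mice. *Ppy* was at 3.41 ± 0.65, *Pyy* at 2.81 ± 0.57 and *Ttr* at 2.38 ± 0.47 (SE), with adjusted p of 0.00566, 0.00824 and 0.00697 by edgeR. *Gcg* had a log2 fold change of 1.65 ± 0.55 with an adjusted p of 0.105, *Sst* of 0.86 ± 0.59 with 0.529, and *Hhex* of 0.15 ± 0.16 (SE) with 0.712. DESeq2 called *Gcg* in this comparison, at 1.64 with batch and 1.38 without it, with adjusted p of 0.0311 and 0.0356. Leaving out treated mouse 69 brought *Gcg* to 2.01 and *Sst* to 1.27, at adjusted p of 0.00870 and 0.0295, and leaving out WT mouse 58 brought *Gcg* to 2.27, at 0.0445 by edgeR. In batch B alone, with 4 against 2 mice, *Ppy* was at 2.75, *Pyy* at 2.28 and *Ttr* at 2.27, none past the threshold, with adjusted p of 0.263, 0.351 and 0.304. Nor did these genes pass with only the 2 groups compared in the fit, at adjusted p of 0.155, 0.237 and 0.192 by edgeR. With the proglumide mice alone the values were 0.0981, 0.133 and 0.123.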

How the data were processed

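Bulk polyA RNA-seq was done on whole pancreas from 16 mice. Per the submitters' processing notes, the authors used Trim Galore 0.6.7, cutadapt 3.5, STAR 2.7.9 and the mm10 build. The counter, its strand setting and the annotation are not given in the sources used here. The authors deposited raw counts for 24411 genes and a normalized signal for 17548 of them, obtained by dividing the raw counts of a mouse by its size factor and called normalized counts here.

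Raw counts were tested with edgeR 4.0.16 in R 4.3.3, by the quasi-likelihood test with TMM factors and the filterByExpr filter, in a model of 3 groups and batch, with Benjamini-Hochberg adjustment over 13660 genes and a threshold of 0.05. DESeq2 1.42.0 was an alternative. The study names DESeq2 and no covariates. Ratios to insulin, with a pseudocount of 0.5, were tested for the 6 genes past the filter by exact two-sided permutation within batches in Python 3.11.15. Both methods were tested on simulated data, which for edgeR had the same spread for every gene and no batch effect. Those runs do not cover the differences between mice and batches seen for the hormone genes. Residual correlations used log2 CPM with a prior count of 2. None of the 37 pairs of libraries within a group agreed within sampling noise.

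The 8 genes and all lists were chosen with earlier results of these data known. Named were the 8 genes, *Ins1* and *Ins2*, at most 4 genes past the threshold a list, and the 3 genes most like each of *Gcg*, *Sst*, *Ppy* and *Pyy*. Genes named outside this rule (*Slc7a2*, *Slc38a5*, *Dpp10*, *Irx1*, *Pou3f4*, *Mboat4*, *Gkn1*, *Gkn2*, *Cdx2*, *Muc2*, *Atp4a*, *Alb*, *Apoa1*, *Gm26982*) are list members or neighbours named after their values were seen. Alternatives changed the tool, batch term, normalization, filter, samples, denominator and pseudocount. Some genes of the lists are counted but not reported here by name. Each mouse is a separate animal.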

Additional observations from a re-analysis of the deposited data

Results flagged for a closer look

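Among 30 groups of mice tested for a value far from the others (10 genes in 3 groups), 1 had such a value, where chance gives about 1 in 20. *Ins2* in WT mouse 59 had 8549 normalized counts, against 11522 to 12665 in the other 4 WT mice. The gap to its nearest neighbour was 0.759 of the group's range on the log2 scale. None of the 8 genes had such a value in any group of 4 to 7 mice.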

How the results depend on the processing

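For the 6 tested genes, the number called between untreated Lep(ob/ob) and WT mice was 3, where 8.94% of all genes were called. It was 5 in batch A alone and 0 in batch B alone, where 8.75% and 0.0522% of all genes were called. With insulin as offset it was also 3, but these were *Gcg*, *Sst* and *Hhex*, all lower, where 91.7% of all genes were called. Leaving out single mice gave 2 to 3. Between treated and untreated Lep(ob/ob) mice the count of 0 became 1 (*Hhex*) without the batch term, by edgeR and by DESeq2, where 3.95% and 18.4% of all genes were called, and leaving out single mice gave 0 to 0. Between treated Lep(ob/ob) and WT mice the count of 3 became 1 (*Sst*, lower) with insulin as offset, where 39.5% of all genes were called, 0 with only the groups compared in the fit, 0 in batch B alone, 0 with proglumide mice alone, 5 with lorglumide mice alone (5.32% of all genes) and 4 by DESeq2 with or without batch (*Gcg* added; 7.79% and 17% of all genes), and leaving out single mice gave 3 to 5, the 5 without treated mouse 69. The count of 4 genes whose ratio to insulin differed from WT became 0 in batch B alone, where no p under 0.1 is possible. Leaving out single mice kept it at 4. The count of 1 against untreated mice became 0 with pan-endocrine genes as denominator, 0 with edgeR, and 3 (*Gcg*, *Ppy* and *Ttr*) when mice of both batches were permuted together. It was 0 whichever single mouse was left out, since 3 against 3 mice allow no p under 0.1 and 4 against 2 none under 0.0667. The interaction gave 0 by edgeR and 0 by DESeq2.

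Signs turned as follows, on the log2 scale. The insulin offset by its construction moved all genes, to a median of -2.40 untreated against WT and -1.83 treated against WT, and under it, untreated against WT, *Gcg* was -1.45, *Sst* -2.38, *Pyy* -0.074 and *Ttr* -0.89, and treated against WT, *Gcg* was -0.91, *Sst* -1.98, *Hhex* -1.78 and *Ttr* -0.25. *Sst*, untreated against WT, was -0.60 in batch B alone and -0.051 to 0.19 without single mice. With proglumide mice alone, treated against untreated, *Gcg* was -0.23, *Sst* -0.16, *Ppy* -0.17 and *Pyy* -0.41, and treated against WT, *Sst* was -0.11. *Pyy*, treated against untreated, was -0.49 without the batch term by edgeR, -0.50 by DESeq2, and -0.052 to 0.80 without single mice. Relative to insulin, untreated against WT, *Ppy* was -0.0066 with *Ins2* alone, -0.34 with pan-endocrine genes, -0.35 in batch B alone and -0.098 to 0.24 without single mice, and *Pyy* was 0.081 with *Ins1* alone. *Hhex* relative to insulin, treated against untreated, was -0.50 to 0.67 without single mice. The cause of the turns other than under the insulin offset was not tested. RLE factors, leaving out the 50 most counted genes and both other filters changed no call. Depth limits *Ghrl* and *Irx2*, with 0 to 15 counts a mouse, which failed the filter over all 16 mice. No paired analysis was possible because a mouse's number recurs in no other group.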
